A study of Arabidopsis thaliana with 32 samples.

Results

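The genes described here are the 300 nuclear loci whose transcripts were higher in rosettes of both the IMA1 overexpressor and the opt3-2 mutant than in a control line on control medium. They were chosen from 33328 nuclear loci in the deposited RPKM tables (reads scaled for transcript length and library size) that set the rosettes of each line beside EYFP OE rosettes on control medium. In both tables the lower library of the line had to lie above the higher EYFP OE library, the ratio of means had to be at least 1.7, and the mean of the line had to be at least 3 RPKM. These conditions were met by 394 loci in the IMA1 OE table (1.18% of loci) and by 462 loci in the opt3-2 table (1.39%). The 306 loci that met them in both tables made up 77.7% of the first list and 66.2% of the second, and the 300 with the highest value of the lower of their 2 ratios were kept. Both tables use the same 2 EYFP OE libraries. The rosette values on control medium therefore chose the genes, and they are given below as a description with no test.

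Arabidopsis thaliana seedlings of 4 lines were grown on 2 media and divided into rosettes and roots, with 2 RNA sequencing libraries in each of 16 groups (32 libraries). IMA1 OE and IMA3 OE carry the coding sequence of IMA1 (At1g47400) or IMA3 (At2g30766) behind the constitutive 35S promoter, opt3-2 carries a T-DNA insertion in OPT3, and EYFP OE, the control line, carries a yellow fluorescent protein behind the same promoter. The labels name no independent lines of a genotype, and EYFP OE is itself transgenic, so a difference shared by the other 3 lines cannot be told apart from a property of EYFP OE. Seedlings grew for 10 days with iron and were then moved for 72 h to control medium or to medium without iron that held the iron chelator ferrozine (Fe deficient). RNA came from pools of seedlings, in which fewer cells of a type and less RNA per cell cannot be told apart.

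Plants need iron for photosynthesis and respiration but must keep free iron low, because it feeds the formation of reactive oxygen. IRON MAN (IMA) peptides promote iron uptake, and OPT3 moves iron into the phloem, a route by which shoots inform roots of their iron status, so loss of OPT3 is known to keep the root uptake machinery active and to load leaves with iron. Ferritins store iron inside plastids, nicotianamine and YSL transporters carry chelated iron through the leaf, and superoxide dismutases and ascorbate peroxidases remove the oxygen species that iron helps to form. The genes were proposed as candidates for an iron-overload response in leaves, and the other medium, the third line and the roots show how far the pattern extends.

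The promoters of 4 members are printed here, of 2 ferritin members, whose values recur below, and of 2 stress genes with several W-boxes, the motif found more often among the members. They were picked after the motif search. Each sequence is the 250 bases before the annotated gene start, from RefSeq, build TAIR10.1, 5′ to 3′ on the strand of the gene, with motif matches in capitals. FER1 (chr5:230052-230301, minus strand) held neither motif. FER3 (chr3:20816036-20816285, minus strand) held a G-box, CACGTG. AT1G26420 (chr1:9143337-9143586, minus strand) held 3 W-boxes and WRKY33 (chr2:16107985-16108234, plus strand) held 2. A W-box is the core bound by WRKY factors, TTGACT or TTGACC, and appears as AGTCAA or GGTCAA where it lies on the other strand.
FER1: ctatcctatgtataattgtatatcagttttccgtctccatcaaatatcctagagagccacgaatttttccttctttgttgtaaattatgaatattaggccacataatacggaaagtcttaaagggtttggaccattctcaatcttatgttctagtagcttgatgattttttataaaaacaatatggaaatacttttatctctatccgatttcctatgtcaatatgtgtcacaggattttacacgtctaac
FER3: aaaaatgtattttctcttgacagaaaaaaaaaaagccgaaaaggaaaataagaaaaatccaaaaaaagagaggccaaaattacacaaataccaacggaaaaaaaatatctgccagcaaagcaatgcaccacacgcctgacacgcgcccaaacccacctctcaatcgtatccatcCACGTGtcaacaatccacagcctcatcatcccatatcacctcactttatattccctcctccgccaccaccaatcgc
AT1G26420: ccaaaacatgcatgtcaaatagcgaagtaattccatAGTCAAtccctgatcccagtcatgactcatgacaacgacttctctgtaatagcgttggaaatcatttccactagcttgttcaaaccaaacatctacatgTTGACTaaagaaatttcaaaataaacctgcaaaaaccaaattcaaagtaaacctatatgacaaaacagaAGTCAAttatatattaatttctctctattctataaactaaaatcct
WRKY33: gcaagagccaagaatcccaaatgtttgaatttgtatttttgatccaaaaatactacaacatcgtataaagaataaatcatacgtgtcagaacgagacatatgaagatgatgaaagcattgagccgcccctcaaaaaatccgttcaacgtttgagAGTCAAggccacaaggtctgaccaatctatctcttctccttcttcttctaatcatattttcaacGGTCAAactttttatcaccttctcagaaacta

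Over the 291 protein-coding members, TTGACT was found on either strand in 39.18% of these windows, against 18.64% of 18669 protein-coding genes tested in rosettes. TTGACC was found in 18.21% of member windows and 12.03% of tested genes, and one or both W-box forms in 48.8% and 28.01%. The G-box CACGTG was in 7.56% of member windows and 7.40% of tested genes, and CACGAG, another motif searched, in 3.78% and 4.19%. A match is only a run of letters in the window, and no test was made.

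The altered genes followed the labels with 1 exception. The IMA1 transcript stood at 485 and 348 RPKM in IMA1 OE rosettes on control medium, against 8.79 and 1.97 RPKM in EYFP OE. OPT3 stood at 3.92 and 3.115 RPKM in opt3-2 rosettes on control medium, against 70.9 and 43.3 RPKM in EYFP OE. The exception was the IMA3 locus, which was not higher in IMA3 OE rosettes on control medium (14.8 and 12.7 RPKM, against 48.3 and 9.85 RPKM in EYFP OE). It was higher in IMA3 OE roots on control medium (28.2 and 25.8 RPKM, against 0.813 and 0.331 RPKM in EYFP OE). In Fe deficient roots it overlapped EYFP OE (31.57 and 26.25 RPKM, against 20.89 and 45.74 RPKM). In Fe deficient IMA3 OE rosettes it was lower (108.8 and 126.3 RPKM, against 286.5 and 429.6 RPKM in EYFP OE). The row of the IMA3 construct held 26.7 to 32.0 RPKM in IMA3 OE rosettes. Summed levels of 6 rosette markers were 20220 to 37850 RPKM in rosettes and 101 to 566 RPKM in roots. Those of 9 root markers were 84.4 to 190 RPKM in rosettes and 1897 to 4268 RPKM in roots. The second opt3-2 rosette library on control medium stood apart. Its rosette marker sum was the lowest of the 16 rosette libraries (20220 RPKM) and that of its partner the highest (37850 RPKM). A ribosomal RNA locus among the members, AT2G01020, reached 12820 RPKM in it, against 2955 RPKM in its partner. Without that library 225 loci met the conditions and 213 of the 300 genes still did. Without the second EYFP OE library 505 loci met them, 285 of the 300 among them.

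On control medium the ratio to EYFP OE ran from 1.72 to 47.2 in IMA1 OE rosettes, with a median of 2.50, and from 1.73 to 24.3 in opt3-2 rosettes, with a median of 2.98. The ratio was higher in opt3-2 than in IMA1 OE for 231 of the 300 genes. This order rested on the second opt3-2 library, without which the median opt3-2 ratio was 2.17, below the 2.50 of IMA1 OE. The lower ratio was at least 3 for 110 genes, at least 5 for 37 and at least 10 for 4. The 3 weakest members were AT1G17860, a protease inhibitor gene (1.73), AT5G19240, which encodes a membrane-anchored glycoprotein (1.73), and AT1G28190 (1.72). Just below the ratio threshold lay AT5G18470, AT2G40095 and VTL1, a vacuolar iron transporter family gene, at 1.699, 1.697 and 1.696. In the EYFP OE control libraries 27 of the 300 genes averaged under 1 RPKM, and their ratios rest on small values.

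The 300 genes comprise 291 protein-coding genes, 6 pseudogenes, 1 ribosomal RNA locus, 1 noncoding RNA gene and AT4G36988, which RefSeq does not list and whose values are identical to those of the heat shock factor gene HSF4 (AT4G36990). By RefSeq product name, with search words chosen after the names had been read, 31 are receptor-like kinases or proteins, 10.3% of the members against 1.52% of the genes tested in rosettes. The members also held 10 WRKY factors (3.33% of members, 0.25% of tested genes), 8 glutathione S-transferases (2.67%, 0.18%), 8 TIR or NB-ARC disease resistance proteins (2.67%, 0.50%), 8 cytochromes P450 (2.67%, 0.61%), 7 EF-hand or calmodulin-like calcium sensors (2.33%, 0.20%), 6 NAC factors (2.00%, 0.37%), 6 ankyrin proteins (2.00%, 0.34%), 4 berberine-type FAD proteins (1.33%, 0.08%) and 3 UDP-glycosyltransferases (1.0%, 0.45%). The cysteine-rich receptor-like kinases numbered 9 (3.00% of members, 0.14% of tested genes), and their median ratios were 4.73 in IMA1 OE and 5.61 in opt3-2. In 13 places members lie next to each other among protein-coding genes, 31 members in all and at most 3 in a row, such as CRK5, CRK6 and CRK7, the cytochromes CYP71B23, CYP71B3 and CYP71B24, and LURP1, PRB1 and PR1. Neighbours of 1 family, like GSTF6 and GSTF7, can share reads in the counting, and their separate levels are uncertain.

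**Figure D1:**
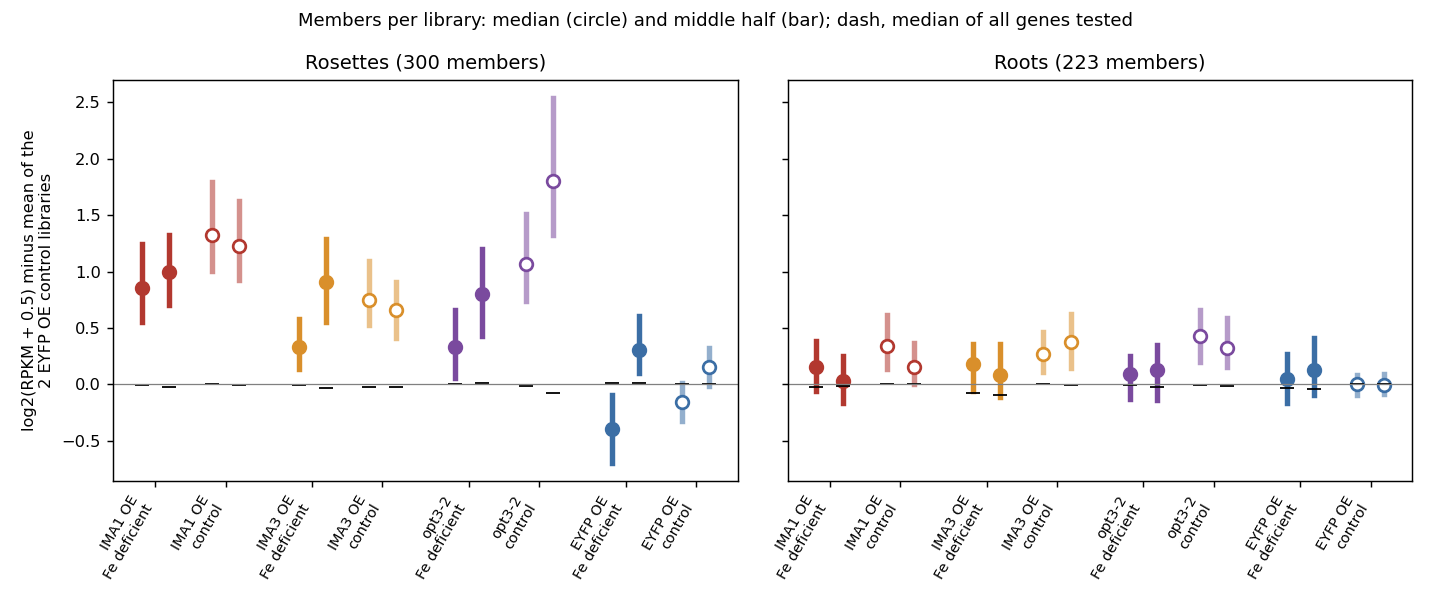
Median (circle) and interquartile range (bar) over the members in each library, as log2(RPKM + 0.5) minus the mean of the EYFP OE control libraries of the tissue, with a dash at the median of all genes tested. Filled symbols are Fe deficient and open ones control. In rosettes all 12 libraries of IMA1 OE, IMA3 OE and opt3-2 lie above the 4 EYFP OE libraries. The rule fixed this on control medium for IMA1 OE and opt3-2. In roots every median lies between −0.003 and 0.43.

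Across the rosette libraries the members were highest in IMA1 OE and opt3-2 on control medium and lowest in EYFP OE, as the plot of medians by library shows. The rule fixed only that these IMA1 OE and opt3-2 libraries lay above the EYFP OE libraries on control medium. Against the mean of the EYFP OE control libraries, the median member stood on the log2 scale at 0.85 and 0.99 in Fe deficient IMA1 OE, 0.34 and 0.90 in Fe deficient IMA3 OE, 0.33 and 0.80 in Fe deficient opt3-2, and −0.40 and 0.30 in Fe deficient EYFP OE. On control medium it stood at 1.32 and 1.23 in IMA1 OE, 0.75 and 0.66 in IMA3 OE, 1.07 and 1.8 in opt3-2, and −0.16 and 0.16 in EYFP OE. The median of all genes tested stayed between −0.08 and 0.01. In Fe deficient IMA3 OE, opt3-2 and EYFP OE the second library lay well above the first, so the lowest opt3-2 library (0.33) was close to the higher EYFP OE library (0.30). The median member was lower on Fe deficient than on control medium by 0.34 in IMA1 OE, where 265 of 300 members were lower, and by 0.89 in opt3-2, where 291 were lower. It differed by −0.06 in IMA3 OE and −0.03 in EYFP OE. Over all genes tested the median difference was −0.01 in IMA1 OE, 0.05 in opt3-2 and 0.01 in IMA3 OE and EYFP OE. The IMA1 OE and opt3-2 control libraries chose the members, so lower levels on the other medium can follow from the choice alone. The differences between media set levels from different tables side by side and were not tested.

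The Fe deficient rosettes took no part in the choice of the genes and give a separate measure of the same line differences. Levels below are RPKM averaged over the deposited tables that hold the library, and fold changes come from the 1 table that holds both groups, on the scale of log2(RPKM + 0.5), which understates the change of low genes. The labels do not say that the libraries of a group came from separate cultures, so the p-values measure only the spread between libraries. All 300 members passed the filter on low values (0.5 RPKM or more on average in the 16 rosette libraries), for which their levels on control medium suffice. In IMA1 OE against EYFP OE, 15 of the 300 members were higher and 0 lower at an adjusted p under 0.05 (limma), against 0.246% higher and 0.169% lower of the 19521 genes tested. At an unadjusted p under 0.05, 165 members were higher, against 4.34% of all genes. Both IMA1 OE libraries lay above both EYFP OE libraries for 229 members, against 14.3% of all genes. The median member was 0.96 higher on the log2 scale, against −0.03 for all genes. When the spread was taken from the 4 compared libraries alone no member passed, and with no filter on low values 7 did. Once p-values from the authors' deposited table were adjusted and used, 27 did, 6 of them among the 15. Same-numbered rosette libraries tended to deviate alike, with a median correlation of 0.37 (−0.01 to 0.566) over pairs of groups. The labels give these numbers no meaning, and the main test and the statements on overlap do not use them. With the replicate number as a block more members passed than in the main test.

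In Fe deficient opt3-2 rosettes against EYFP OE, 1 member was higher and 0 lower, against 0.0102% higher and 0.0205% lower of all genes tested. Both opt3-2 libraries lay above both EYFP OE libraries for 114 members, against 11% of all genes, and the median member was 0.58 higher, against −0.01 for all genes. In Fe deficient IMA3 OE rosettes 0 members were higher and 0 lower in limma, against 0.00512% higher of all genes. With the authors' deposited p-values, adjusted, 12 passed. At an unadjusted p under 0.05, 98 were higher and 3 lower, against 2.16% and 1.54% of all genes. Both IMA3 OE libraries lay above both EYFP OE libraries for 146 members, against 10.3% of all genes, and the median member was 0.70 higher, against −0.02 for all genes. The 3 comparisons share the EYFP OE libraries, and whether the lines differ from each other was not tested.

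On control medium IMA3 OE rosettes were not part of the rule, but they are set against the EYFP OE libraries that were, so their values are a description. Both IMA3 OE libraries lay above both EYFP OE libraries for 246 of the 300 members, against 12% of all genes, and the median member was 0.70 higher, against −0.02 for all genes. In EYFP OE rosettes, Fe deficient against control, both Fe deficient libraries lay above both control libraries for 14 members (9.89% of all genes) and below them for 29 (9.72% of all genes), with a median of −0.05.

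**Figure D2:**
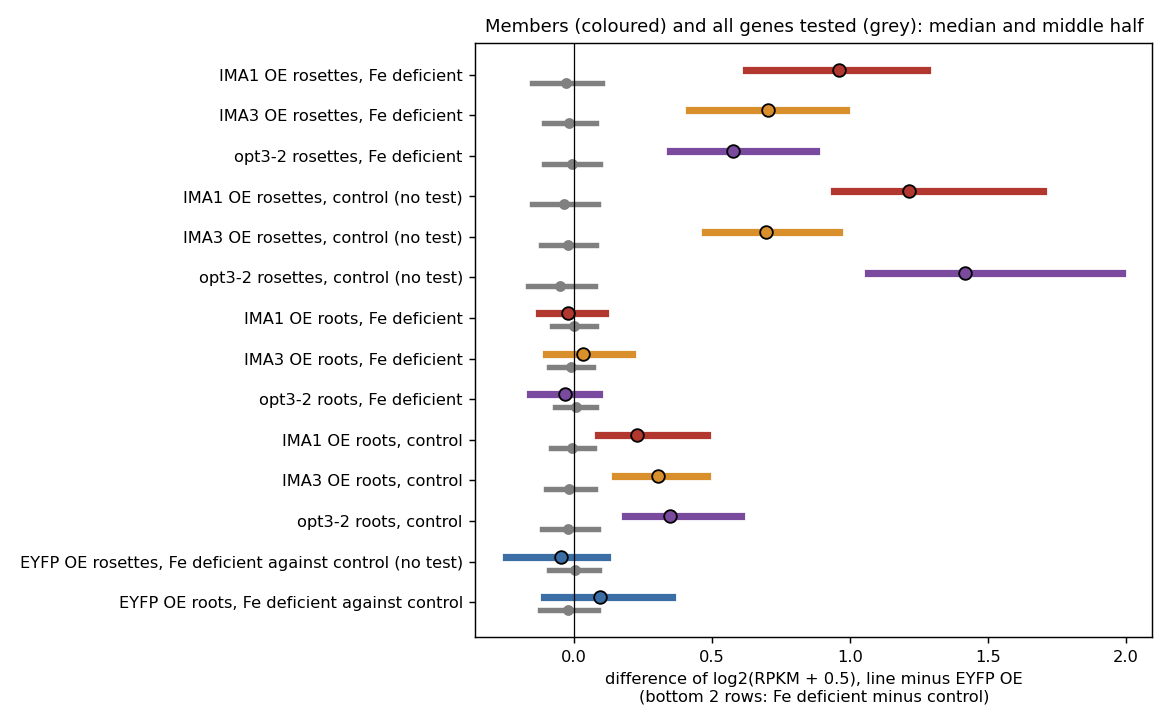
Difference of log2(RPKM + 0.5) for each comparison, as the median (circle) and interquartile range (bar) over the members (coloured, 300 in rosettes and 223 in roots) and over all genes tested (grey). Rosette medians of the lines lie between 0.58 and 1.42, root medians on control medium between 0.23 and 0.35, and root medians on Fe deficient medium between −0.03 and 0.03.

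Ferritins, the iron stores of plastids, held the highest levels among the iron-related members. FER1 (AT5G01600) stood in Fe deficient rosettes at 247.5 and 123 RPKM in IMA1 OE, 49.7 and 39.3 RPKM in IMA3 OE, 149.6 and 100.9 RPKM in opt3-2, and 9.55 and 4.64 RPKM in EYFP OE. On control medium it stood at 1289 and 992 RPKM in IMA1 OE, 257 and 337 RPKM in IMA3 OE, 939 and 1059 RPKM in opt3-2, and 56.5 and 281.5 RPKM in EYFP OE. All 3 lines lay above EYFP OE on Fe deficient medium with no overlap, each line was lower there than on control medium, and the EYFP OE control libraries lay far apart. On Fe deficient medium the log2 fold change was 4.6 (SE 0.41, adjusted p = 0.00334, limma) in IMA1 OE and 4.09 (SE 0.41, adjusted p = 0.038) in opt3-2, and in IMA3 OE it was 2.65 (SE 0.41, adjusted p = 0.202). The IMA1 OE call held with each of the 4 libraries left out, whereas the opt3-2 call was lost without the second EYFP OE library (adjusted p = 0.171), the first opt3-2 library (0.472) or the second (0.241). FER1 overlaps a noncoding gene on the other strand, AT5G01595, and whether counting used the strand is not given in the sources used here.

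FER4 stood in Fe deficient rosettes at 112.8 and 77.2 RPKM in IMA1 OE, 37.1 and 29.7 RPKM in IMA3 OE, 43.0 and 31.7 RPKM in opt3-2, and 15.9 and 7.88 RPKM in EYFP OE. Its level rose in IMA1 OE by 3.00 on the log2 scale (SE 0.33, adjusted p = 0.00929, limma). The call was lost without the first IMA1 OE library (0.104). The other lines also lay above EYFP OE with no overlap, at 1.53 in IMA3 OE (SE 0.33, adjusted p = 0.447) and 1.66 in opt3-2 (SE 0.33, adjusted p = 0.459). FER3 stood at 81.7 and 53.5 RPKM in IMA1 OE, 59.1 and 36.9 RPKM in IMA3 OE, 69.7 and 39.9 RPKM in opt3-2, and 48.8 and 32.6 RPKM in EYFP OE. The IMA1 OE libraries both lay above both EYFP OE libraries (log2 fold change 0.72, SE 0.35, adjusted p = 0.664). Of the 10 genes of the iron storage list, 7 were tested in Fe deficient rosettes. In IMA1 OE 3 rose, FER1, FER4 and the vacuolar iron transporter gene VTL2, which is no member (1.84, SE 0.18, adjusted p = 0.00656, lost without the first IMA1 OE library at 0.0801), and in opt3-2 FER1 alone did. The median of the list was 1.71 in IMA1 OE, 0.44 in IMA3 OE and 1.04 in opt3-2, against −0.03, −0.02 and −0.01 over all genes tested. The list holds 3 members, and the median of any list that holds members is not free of the choice of genes.

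Members that move chelated iron were YSL1, NAS3 and FRD3. YSL1 carries iron bound to nicotianamine into leaf cells and stood in Fe deficient rosettes at 22.1 and 18.9 RPKM in IMA1 OE, 13.2 and 9.55 RPKM in IMA3 OE, 12.1 and 13.4 RPKM in opt3-2, and 6.39 and 3.07 RPKM in EYFP OE. It rose in IMA1 OE (log2 fold change 2.08, SE 0.29, adjusted p = 0.0355, limma). It lost this call without the second EYFP OE library (0.0586), the first IMA1 OE library (0.285) or the second (0.133). NAS3, a nicotianamine synthase, stood at 20.6 and 14.4 RPKM in IMA1 OE, 14.0 and 5.10 RPKM in IMA3 OE, 14.0 and 9.79 RPKM in opt3-2, and 2.99 and 0.41 RPKM in EYFP OE. The groups did not overlap, and its fold change in IMA1 OE was 3.31 (SE 0.63, adjusted p = 0.112). FRD3, a citrate exporter that loads iron into the xylem, was low in rosettes, at 1.44 and 1.67 RPKM in Fe deficient IMA1 OE, 2.46 and 2.62 RPKM in opt3-2, and 1.35 and 1.74 RPKM in EYFP OE, and is described with the roots.

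Genes that regulate the response to iron deficiency were lower or without a call in Fe deficient IMA1 OE rosettes. Of 19 tested genes on the list of iron deficiency regulators, none of them a member, 8 fell and 0 rose. BHLH38, BHLH100, BHLH101 and IMA2, all induced by iron deficiency in wild-type plants, fell by 7.42, 7.84, 6.39 and 7.22 on the log2 scale, with adjusted p of 0.000733, 0.000949, 0.000733 and 0.000733 (limma). Of 20 tested genes of iron uptake and transport 1 rose, YSL1, and 5 fell, among them NAS4 (−2.58, SE 0.16, adjusted p = 0.000733), ZIF1, which moves nicotianamine into vacuoles (−2.67, SE 0.18, adjusted p = 0.000949), OPT3 (−2.33, SE 0.24, adjusted p = 0.00815) and NRAMP4 (−1.63, SE 0.22, adjusted p = 0.0304). Of 13 plastid iron-sulfur proteins, none of them a member, 3 rose: NEET (5.15, SE 0.47, adjusted p = 0.00416), SUFB (2.21, SE 0.24, adjusted p = 0.00918) and ENH1 (2.79, SE 0.36, adjusted p = 0.0232). The call of NEET was lost without the first IMA1 OE library (0.0542), and those of SUFB, ENH1 and NRAMP4 without either IMA1 OE library (adjusted p 0.058 to 0.271) and, for ENH1 and NRAMP4, without the second EYFP OE library (0.0884 and 0.106). The medians of these 3 lists were −0.93, −0.25 and −0.02. In Fe deficient IMA3 OE rosettes 0 genes of the 3 lists passed in limma, and in opt3-2 only OPT3, the mutated gene, did (−4.91, SE 0.24, adjusted p = 0.000492).

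**Figure D3:**
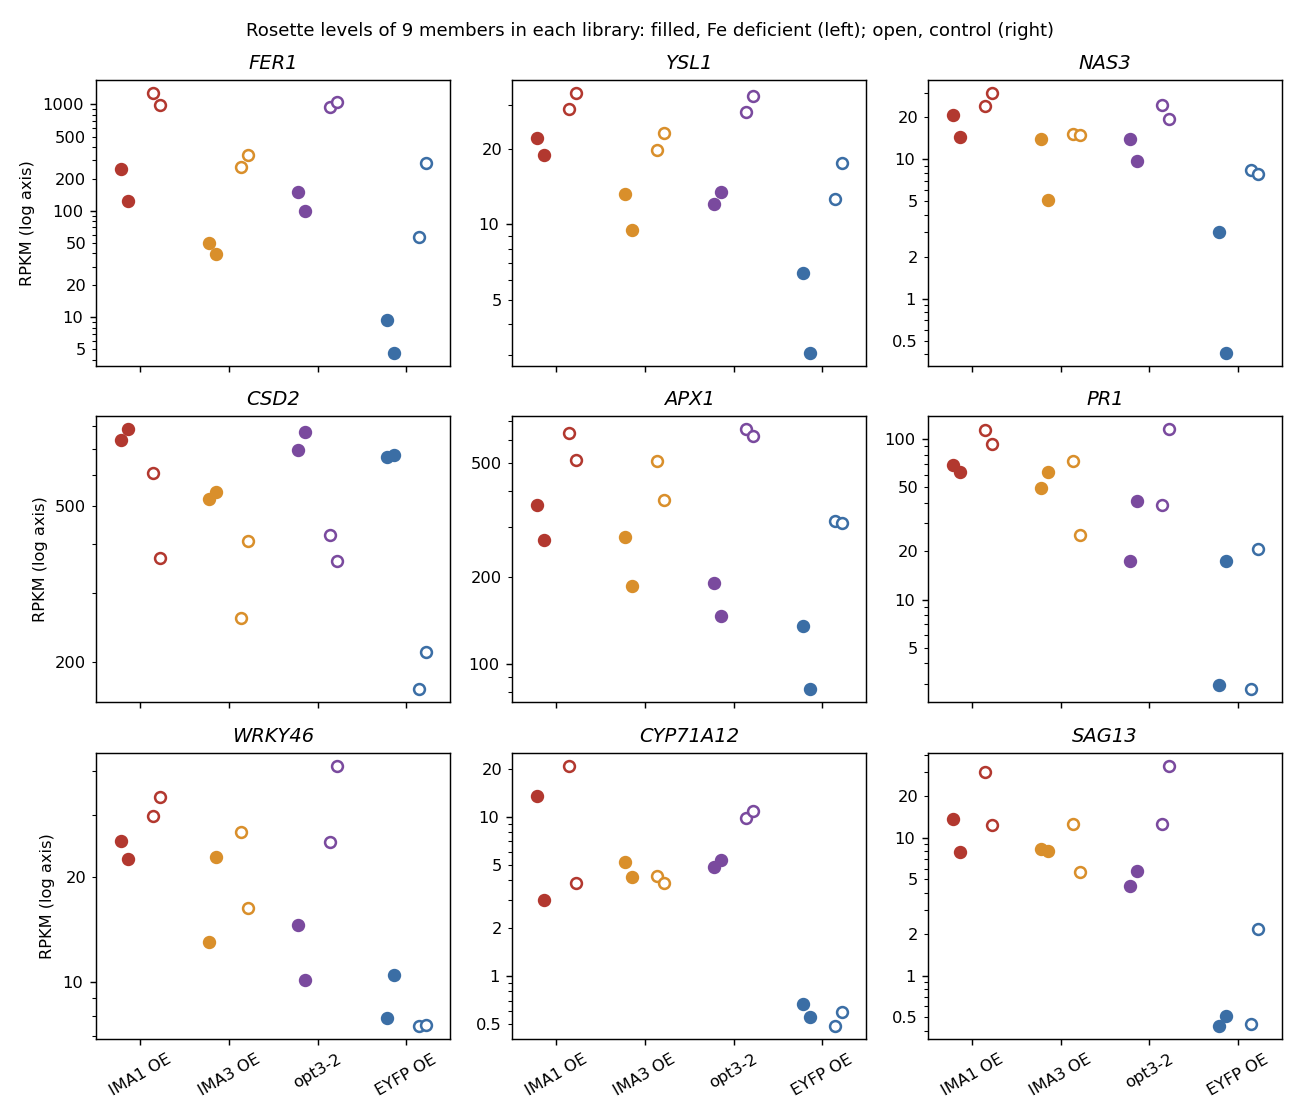
Rosette levels in RPKM on a log axis for 9 members, with 1 point per library, filled for Fe deficient and open for control. FER1, YSL1 and NAS3 are lowest in Fe deficient EYFP OE, where CSD2 is high at 665 and 673 RPKM, and CYP71A12 is under 1 RPKM in all 4 EYFP OE libraries.

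The 4 members that remove superoxide and peroxide did not share 1 pattern, as the plot of levels of single members shows for CSD2 and APX1. CSD2, the plastid copper/zinc superoxide dismutase, stood in Fe deficient rosettes at 737 and 784 RPKM in IMA1 OE, 521 and 543 RPKM in IMA3 OE, 692 and 770 RPKM in opt3-2, and 665 and 673 RPKM in EYFP OE. On control medium it stood at 608 and 368 RPKM in IMA1 OE, 259 and 407 RPKM in IMA3 OE, 421 and 361.5 RPKM in opt3-2, and 169.9 and 211 RPKM in EYFP OE. In EYFP OE both Fe deficient libraries lay far above both control libraries. On Fe deficient medium IMA1 OE and opt3-2 lay just above EYFP OE and IMA3 OE below it. On Fe deficient medium its fold change on the log2 scale was 0.17 in IMA1 OE (SE 0.19, adjusted p = 0.893, limma), −0.34 in IMA3 OE (SE 0.19, adjusted p = 1) and 0.12 in opt3-2 (SE 0.19, adjusted p = 1). The cytosolic enzyme CSD1 and CCS, the chaperone that gives both their copper, had the same order of groups in EYFP OE: CSD1 stood at 313 and 378 RPKM on Fe deficient and 127 and 124 RPKM on control medium, and CCS at 125 and 136 RPKM and 38.4 and 35.6 RPKM.

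APX1, the cytosolic ascorbate peroxidase, had the order of media seen in the ferritins. It stood in Fe deficient rosettes at 356.6 and 269.8 RPKM in IMA1 OE, 276 and 186 RPKM in IMA3 OE, 190.2 and 146 RPKM in opt3-2, and 135.7 and 81.4 RPKM in EYFP OE. On control medium it stood at 636 and 513 RPKM in IMA1 OE, 506 and 372 RPKM in IMA3 OE, 654 and 619 RPKM in opt3-2, and 313.5 and 309 RPKM in EYFP OE. No line overlapped EYFP OE on either medium, which the rule fixed on control medium for IMA1 OE and opt3-2. On Fe deficient medium the fold change was 1.56 in IMA1 OE (SE 0.31, adjusted p = 0.124, limma), 1.11 in IMA3 OE (SE 0.31, adjusted p = 0.79) and 0.66 in opt3-2 (SE 0.31, adjusted p = 1). Of 14 tested genes of the list, 1 rose in Fe deficient IMA1 OE, the iron superoxide dismutase FSD1, which is no member (2.47, SE 0.33, adjusted p = 0.0267). The call did not hold without the first EYFP OE library (0.0744) or the second (0.152).

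The salicylate and pathogen response list holds 10 members, and 19 of its 21 genes were tested in rosettes. PR1, the classical marker of salicylate signalling, stood in Fe deficient rosettes at 68.4 and 62.0 RPKM in IMA1 OE, 49.8 and 62.5 RPKM in IMA3 OE, 17.5 and 41.0 RPKM in opt3-2, and 2.92 and 17.41 RPKM in EYFP OE. On control medium it stood at 113 and 93.0 RPKM in IMA1 OE, 72.6 and 25.4 RPKM in IMA3 OE, 38.7 and 115 RPKM in opt3-2, and 2.76 and 20.7 RPKM in EYFP OE. On each medium the libraries of the 3 lines lay above both EYFP OE libraries, which the rule fixed on control medium for IMA1 OE and opt3-2. The first Fe deficient opt3-2 library was level with the higher EYFP OE one. The EYFP OE libraries of each medium lay far apart, and the fold change in Fe deficient IMA1 OE, 3.06 (SE 0.78), had an adjusted p of 0.283 (limma).

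PR2, a glucanase secreted on infection, stood on control medium at 106.7 and 63.7 RPKM in IMA1 OE, 41.6 and 17.3 RPKM in IMA3 OE, 102.4 and 267 RPKM in opt3-2, and 10.2 and 12.5 RPKM in EYFP OE. In Fe deficient rosettes IMA1 OE (12.9 and 25.4 RPKM) and opt3-2 (8.46 and 40.3 RPKM) overlapped EYFP OE (3.81 and 17 RPKM). PR5 gave 36.0 and 29.9 RPKM in IMA1 OE, 46.4 and 85.6 RPKM in opt3-2, and 6.68 and 9.98 RPKM in EYFP OE on control medium. On Fe deficient medium it gave 11.25 and 17.7 RPKM in IMA1 OE, 11.1 and 11.4 RPKM in IMA3 OE and 5.45 and 21.7 RPKM in opt3-2. EYFP OE held 5.06 and 11.25 RPKM there, so IMA1 OE touched it and IMA3 OE and opt3-2 overlapped it. For PR2 and PR5 the second opt3-2 library on control medium, the one that stood apart, held the highest level of all 16.

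WRKY46, a transcription factor of the salicylate response, stood at 25.2 and 22.5 RPKM in Fe deficient IMA1 OE rosettes, 13.04 and 22.7 RPKM in IMA3 OE, 14.5 and 10 RPKM in opt3-2, and 7.90 and 10.4 RPKM in EYFP OE, so opt3-2 overlapped EYFP OE while IMA1 OE and IMA3 OE did not. SARD1, a transcription factor that drives salicylate synthesis, stood at 26.8 and 21.3 RPKM in Fe deficient IMA1 OE, 7.43 and 16.4 RPKM in IMA3 OE, 15.9 and 15.2 RPKM in opt3-2, and 3.85 and 9.59 RPKM in EYFP OE, which only IMA3 OE overlapped. CBP60G, its close relative, stood at 27.5 and 16.5 RPKM in IMA1 OE, 11.9 and 22.8 RPKM in IMA3 OE, 23.8 and 7.32 RPKM in opt3-2, and 7.92 and 10.27 RPKM in EYFP OE, and here opt3-2 overlapped EYFP OE. PAD4, a lipase-like protein of basal resistance, was the weakest of the 10, with ratios of 1.82 and 1.93 on control medium. PAD3, the last enzyme of camalexin synthesis, WRKY54 and PBS3, which makes a salicylate precursor, complete the list. In Fe deficient rosettes 0 of the 19 genes passed in limma in IMA1 OE, IMA3 OE or opt3-2, and the list medians were 0.86 in IMA1 OE, 0.38 in IMA3 OE and 0.38 in opt3-2. The jasmonate and wound list, with no member, had a median of −0.07 in IMA1 OE, 0.17 in IMA3 OE and −0.16 in opt3-2. Because the salicylate list holds 10 members, a difference between the medians of these lists partly restates the choice of genes.

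The oxidative and retrograde stress list, genes that answer signals from stressed plastids and mitochondria, holds 4 members. OM66, a marker gene of mitochondrial stress, stood in Fe deficient rosettes at 24.2 and 23.5 RPKM in IMA1 OE, 13.9 and 27.2 RPKM in IMA3 OE, 19.4 and 11.4 RPKM in opt3-2, and 7.22 and 12.5 RPKM in EYFP OE. WRKY33, whose promoter is printed above, stood at 75.7 and 65.6 RPKM in IMA1 OE, 30.3 and 71.6 RPKM in IMA3 OE, 61.7 and 26.4 RPKM in opt3-2, and 23.7 and 34.6 RPKM in EYFP OE. For both genes IMA1 OE lay above EYFP OE and opt3-2 overlapped it. The fold changes in IMA1 OE were 1.28 (SE 0.38, adjusted p = 0.377, limma) and 1.28 (SE 0.47, adjusted p = 0.522). WRKY40 stood at 28.8 and 34.8 RPKM in Fe deficient IMA1 OE, 25.2 and 50.4 RPKM in IMA3 OE, 27.9 and 11.9 RPKM in opt3-2, and 20.1 RPKM in each EYFP OE library, so the opt3-2 libraries lay on either side of EYFP OE. GSTU24, a glutathione S-transferase, stood at 2.96 and 1.41 RPKM in Fe deficient IMA1 OE and at 0.797 and 0.93 RPKM in EYFP OE. In Fe deficient rosettes 0 of the 12 genes of the list passed in limma in IMA1 OE, IMA3 OE or opt3-2, and the list medians were 0.75, 0.64 and 0.52.

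The highest ratios included enzymes of indole defence compounds and of detoxification. AT1G26390, a berberine-type FAD oxidase, was first, with 16.5 and 2.44 RPKM in IMA1 OE rosettes on control medium, 4.55 and 3.08 RPKM in IMA3 OE, 3.47 and 6.31 RPKM in opt3-2, and 0.184 and 0.206 RPKM in EYFP OE. In Fe deficient rosettes it stood at 11.7 and 2.35 RPKM in IMA1 OE, 4.51 and 3.95 RPKM in IMA3 OE, 2.58 and 2.48 RPKM in opt3-2, and 0.01 and 0.147 RPKM in EYFP OE. All 12 libraries of the lines were above all 4 EYFP OE libraries, which the rule fixed on control medium for IMA1 OE and opt3-2. The first IMA1 OE library lay far above the second on both media. The fold change in Fe deficient IMA1 OE was 3.36 (SE 0.57, adjusted p = 0.0662, limma).

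CYP71A12, a cytochrome P450 that acts early in camalexin and related indole synthesis, stood in Fe deficient rosettes at 13.6 and 3.00 RPKM in IMA1 OE, 5.22 and 4.19 RPKM in IMA3 OE, 4.85 and 5.38 RPKM in opt3-2, and 0.666 and 0.549 RPKM in EYFP OE. It again set all 12 libraries of the lines above all 4 of EYFP OE, which the rule fixed on control medium for IMA1 OE and opt3-2. Its fold change in Fe deficient IMA1 OE was 2.66 (SE 0.53, adjusted p = 0.13, limma). NIT2, a nitrilase, stood at 23.9 and 9.21 RPKM in Fe deficient IMA1 OE and at 0.58 and 1.75 RPKM in EYFP OE (3.30, SE 0.52, adjusted p = 0.0543). GSTU10, a glutathione S-transferase, stood at 3.77 and 1.71 RPKM in Fe deficient IMA1 OE and at 0.277 and 0.314 RPKM in EYFP OE and rose (1.94, SE 0.29, adjusted p = 0.0457). The call was lost without the first EYFP OE library (0.225), the second (0.181) or the first IMA1 OE library (0.122).

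Among the 20 highest ratios, 8 more had control-medium levels under 12 RPKM in every rosette library and under 1.4 RPKM in EYFP OE: AT5G38900, a thioredoxin family gene, AT2G45220, of the invertase and pectin methylesterase inhibitor family, AT1G65690, AT3G18250, AT4G10500, of an iron-dependent oxygenase family, CAX3, a vacuolar cation exchanger, AT1G26420, another berberine-type gene, and CRK37. BIP3, a chaperone induced when proteins misfold in the endoplasmic reticulum, differed between media. On Fe deficient medium it stood at 0.835 and 1.26 RPKM in IMA1 OE, 0.525 and 2.04 RPKM in opt3-2 and 0.421 and 0.946 RPKM in EYFP OE, and the groups overlapped. On control medium it stood at 7.37 and 5.71 RPKM in IMA1 OE and 8.62 and 24.0 RPKM in opt3-2, against 0.771 and 1.09 RPKM in EYFP OE. The chitinase AT2G43570, WRKY50, AT1G13470 and the noncoding RNA AT3G15536 were the remaining genes of the 20 beside PR1, PR2 and SAG13. WRKY50 stood at 6.44 and 6.77 RPKM in IMA1 OE and 4.18 and 13.7 RPKM in opt3-2 on control medium, against 0.631 and 1.23 RPKM in EYFP OE, and overlapped EYFP OE on Fe deficient medium (1.85 and 2.35 RPKM in IMA1 OE, against 0.146 and 3.27 RPKM).

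Among the members, the lowest adjusted p in Fe deficient IMA1 OE rosettes belonged to AT3G49160, FER1 and DAR6. AT3G49160, a pyruvate kinase family gene, stood at 18.18 and 13.7 RPKM in IMA1 OE, 3.32 and 2.92 RPKM in IMA3 OE, 5.75 and 4.35 RPKM in opt3-2, and 0.616 and 0.176 RPKM in EYFP OE (IMA1 OE log2 fold change 4.23, SE 0.29, adjusted p = 0.000949, limma). DAR6, a gene of the DA1-related family, stood at 6.40 and 4.68 RPKM in IMA1 OE, 2.19 and 2.62 RPKM in IMA3 OE, 2.34 and 1.81 RPKM in opt3-2, and 0.864 and 0.551 RPKM in EYFP OE (2.31, SE 0.21, adjusted p = 0.00334). Both calls held with each of the 4 libraries left out. In both genes IMA3 OE and opt3-2 lay between IMA1 OE and EYFP OE without overlap.

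SAG13, a marker of senescing and dying leaf tissue, stood at 13.7 and 7.85 RPKM in Fe deficient IMA1 OE, 8.38 and 8.06 RPKM in IMA3 OE, 4.51 and 5.77 RPKM in opt3-2, and 0.433 and 0.51 RPKM in EYFP OE. It rose in IMA1 OE (3.48, SE 0.36, adjusted p = 0.00731). It lost this call without the second EYFP OE library (0.0566) or the first IMA1 OE library (0.0645), and no line overlapped EYFP OE. MSS1, a sugar transporter gene, stood at 11.04 and 9.34 RPKM in IMA1 OE and at 3.51 and 3.68 RPKM in EYFP OE and rose (1.38, SE 0.14, adjusted p = 0.00731). The call did not hold without the same libraries (0.0509 and 0.0801). CAX3 rose by 1.47 (SE 0.21, adjusted p = 0.0385), with adjusted p of 0.0509 to 0.308 when any 1 of the 4 libraries was left out. Of 10 tested genes of the leaf senescence list SAG13 alone rose, and the list median was 0.74. The other 7 members called were AT2G43150, AT3G14280, AT1G66920, AT3G61280, AT4G12490 and SIB1, named here after their values were seen, and GSTU10, given above. Their fold changes ran from 0.95 to 2.91, and all 7 lost their call without the first IMA1 OE library (adjusted p 0.122 to 0.284), and each also without at least 1 other library.

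**Figure D4:**
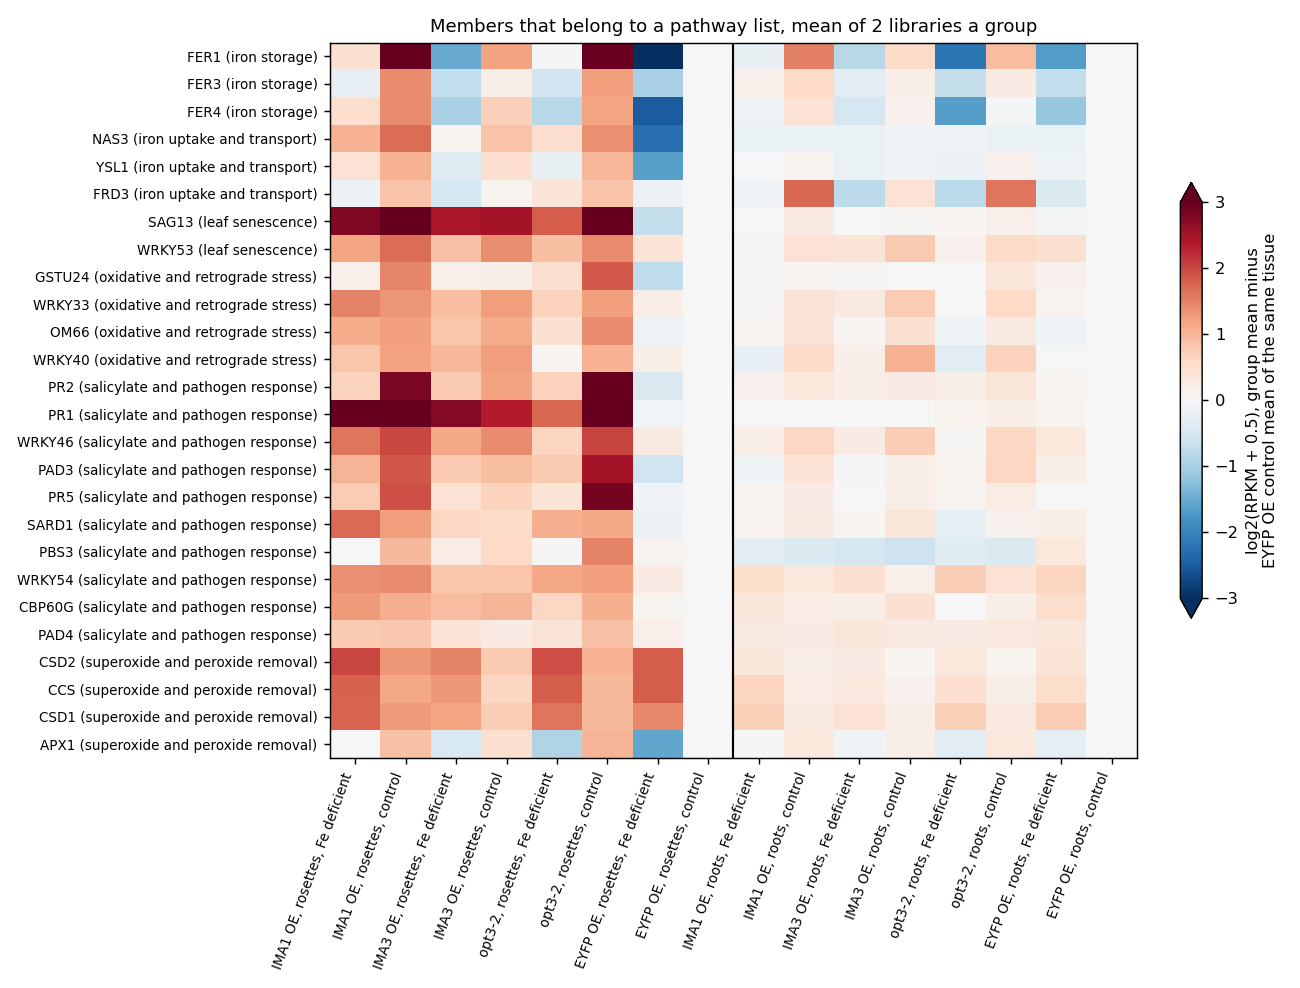
Group means of log2(RPKM + 0.5) minus the EYFP OE control mean of the tissue for the 26 members that belong to a pathway list, with rosette groups left of the black line and root groups right of it; red is higher, blue lower, and the scale ends at 3 in both directions. In Fe deficient EYFP OE rosettes the ferritins, NAS3, YSL1 and APX1 are blue while CSD1, CSD2 and CCS are red, and in roots most cells are near white.

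In roots 223 of the 300 members passed the filter on low values and 77 did not, among them PR1, PR2, PR5, SAG13, NAS3 and YSL1, which stayed under 0.5 RPKM in all 16 root libraries. The counts that follow cover those 223 and not all members. On control medium 8 members were higher and 0 lower in IMA1 OE roots than in EYFP OE roots at an adjusted p under 0.05 (limma), against 0.34% higher and 0.0292% lower of the 20577 genes tested. In IMA3 OE roots 4 were higher and 0 lower, against 0.194% higher and 0.00972% lower of all genes. In opt3-2 roots 20 were higher and 0 lower, against 0.909% higher and 0.0632% lower of all genes. Both libraries of the line lay above both EYFP OE libraries for 113 members in IMA1 OE, 147 in IMA3 OE and 154 in opt3-2, against 14%, 16.3% and 18.4% of all genes. The median member was 0.23, 0.31 and 0.35 higher, against −0.01, −0.02 and −0.02 for all genes. Rosette markers, at 181 to 333 RPKM in opt3-2 and 261 to 391 RPKM in IMA1 OE, were lower in these roots than in EYFP OE (471 to 566 RPKM), and IMA3 OE overlapped it (351 to 526 RPKM). Root markers summed to 4233 to 4268 RPKM in opt3-2, 3315 to 4190 RPKM in IMA1 OE and 4165 to 4170 RPKM in IMA3 OE, against 2430 to 2432 RPKM in EYFP OE. Most of that sum was 1 gene, PYK10, a beta-glucosidase gene, at 4012 RPKM in both opt3-2 libraries, 3107 and 3969 RPKM in IMA1 OE, 3939 RPKM in both of IMA3 OE and 2219 RPKM in both of EYFP OE. None of the 9 root markers passed the test in these 3 comparisons, and their median difference was 0.16 in opt3-2, 0.02 in IMA1 OE and 0.10 in IMA3 OE. Of the 6 rosette markers 1 was below 0.5 RPKM in both EYFP OE libraries, of the 9 root markers 0 were, and the part of either in the member differences was not tested.

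On control medium 4 members rose in the roots of all 3 lines, which share the EYFP OE libraries. AT2G05920, a subtilase family gene, stood at 156.2 and 158.4 RPKM in IMA1 OE, 152.7 and 165.7 RPKM in IMA3 OE, 148.2 and 152.4 RPKM in opt3-2, and 26.8 and 26.5 RPKM in EYFP OE. Its fold changes were 2.53, 2.53 and 2.45 (SE 0.06 each), with adjusted p of 1.25e-09, 1.20e-09 and 1.72e-09 (limma). On Fe deficient medium it stood at 141.3 to 155.7 RPKM in the 3 lines and at 23.9 and 25.8 RPKM in EYFP OE, with fold changes of 2.57 to 2.60. In rosettes it stood at 53.7 to 76.7 RPKM in the 12 libraries of the lines and at 26.6 to 32.8 RPKM in the 4 of EYFP OE. In roots the fold changes of the 3 lines on both media thus lay between 2.45 and 2.60. In both organs the EYFP OE libraries lay below all those of the lines, which the rule fixed in control rosettes for IMA1 OE and opt3-2. Such a difference cannot be told apart from a property of EYFP OE.

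GSTF2, a glutathione S-transferase, stood in control roots at 181.9 and 170.2 RPKM in IMA1 OE, 166 and 163 RPKM in IMA3 OE, 231 and 259 RPKM in opt3-2, and 93.6 and 80.5 RPKM in EYFP OE. It rose by 1.0 in IMA1 OE (SE 0.10, adjusted p = 0.000742) and 1.47 in opt3-2 (SE 0.10, adjusted p = 2.19e-05). In IMA3 OE it rose by 0.90 (SE 0.10, adjusted p = 0.00479), which was lost without either IMA3 OE library (0.0631 and 0.0595). PSK4, which encodes a phytosulfokine growth peptide, stood at 54.6 and 36.5 RPKM in IMA1 OE, 44.5 and 45.4 RPKM in IMA3 OE, 42.1 and 39.5 RPKM in opt3-2, and 19.1 and 16.5 RPKM in EYFP OE. Its fold changes were 1.29, 1.29 and 1.17 (SE 0.15 each, adjusted p = 0.00243, 0.00677 and 0.0022). The IMA3 OE call of PSK4 was lost without the second EYFP OE library (0.0652) or either IMA3 OE library (0.0667 and 0.0835). GSTF7 stood at 46.9 and 31.7 RPKM in IMA1 OE, 46.2 and 47.7 RPKM in IMA3 OE, 49.7 and 51.4 RPKM in opt3-2, and 15.0 and 16.0 RPKM in EYFP OE. Its opt3-2 call (1.66, SE 0.19, adjusted p = 0.00108) held with each library left out. That of IMA1 OE (1.27, SE 0.19, adjusted p = 0.0149) was lost without either EYFP OE library or the first IMA1 OE library (0.0952 to 0.166). That of IMA3 OE (1.54, SE 0.19, adjusted p = 0.00823) was lost without any 1 of the 4 libraries (0.0652 to 0.117).

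FRD3, the citrate exporter, was the member of the iron transport list that was tested in roots. It stood in control roots at 65.3 and 50.3 RPKM in IMA1 OE, 23.5 and 23.1 RPKM in IMA3 OE, 56.8 and 48.9 RPKM in opt3-2, and 14.3 and 20.3 RPKM in EYFP OE. It rose in IMA1 OE (1.7, SE 0.20, adjusted p = 0.00247, limma) and opt3-2 (1.58, SE 0.20, adjusted p = 0.00186), calls that held with each library left out, and gave 0.42 in IMA3 OE (SE 0.20, adjusted p = 0.70). On Fe deficient medium it stood at 18.8 and 13.1 RPKM in IMA1 OE, 9.74 and 9.59 RPKM in IMA3 OE, 10.8 and 8.35 RPKM in opt3-2, and 12.7 and 12.3 RPKM in EYFP OE, and no line passed. FER1 stood in control roots at 259.6 and 306.7 RPKM in IMA1 OE, 141.4 and 147 RPKM in IMA3 OE, 183.8 and 186.6 RPKM in opt3-2, and 74.9 and 127.8 RPKM in EYFP OE. It rose in IMA1 OE (1.51, SE 0.25, adjusted p = 0.0277). The call was lost without the first EYFP OE library (0.232) or either IMA1 OE library (0.138 and 0.144), and in opt3-2 it gave 0.90 (SE 0.25, adjusted p = 0.165). The iron deficiency list has 20 tested regulators, none of them a member. On control medium 6 rose in IMA1 OE roots, 4 in IMA3 OE roots and 11 in opt3-2 roots, and 0 fell. The list includes IMA1 and IMA3, the genes that IMA1 OE and IMA3 OE overexpress. Whichever library was left out, the calls of BHLH38, BHLH100 and BHLH101 in IMA3 OE, BTSL1 in IMA1 OE and FIT in opt3-2 were lost. Those of BHLH39 and BHLH101 in IMA1 OE and of IMA1 and IMA2 in opt3-2 were lost without some libraries.

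The 20 calls in opt3-2 on control medium were the most of the root comparisons between lines. WRKY45, a transcription factor, stood at 9.35 and 11.6 RPKM in opt3-2 and at 4.16 and 4.13 RPKM in EYFP OE (1.22, SE 0.13, adjusted p = 0.000479). AT4G01870, named after its values were seen, stood at 23.8 and 21.0 RPKM in opt3-2 and at 11.3 and 10.6 RPKM in EYFP OE (0.98, SE 0.13, adjusted p = 0.00289). Both calls held with each library left out. The chitinase AT2G43570 rose by 1.23 (SE 0.17, adjusted p = 0.00361). It lost this call without the first opt3-2 library (0.0548). NIT2 rose by 0.77 (SE 0.16, adjusted p = 0.0492). The call did not hold without any 1 of the 4 libraries (0.133 to 0.307). PIA1, an ankyrin gene named here after its values were seen, was also called (3.46, SE 0.70, adjusted p = 0.0461). It stood at 5.32 and 4.78 RPKM in opt3-2 roots, against 0.01 RPKM in each EYFP OE root library, but it also read 0.01 RPKM in 1 library and between 4.43 and 5.20 RPKM in the other in 4 groups of the series, and the call was lost without any 1 library (0.184 to 0.294).

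In Fe deficient roots the members differed little between lines. At an adjusted p under 0.05 (limma), 2 were higher in IMA1 OE, AT2G05920 and AT3G49160, against 0.0778% of all genes. In IMA3 OE 2 were higher, AT2G05920 and GSTF2, against 0.0972%, and in opt3-2 AT2G05920 alone was, 1 gene against 0.0583%. In these comparisons 0 members were lower, against 0.0535%, 0.034% and 0.0292% of all genes. Both libraries of the line lay above both EYFP OE libraries for 34, 50 and 31 of the 223 members, against 16%, 14.2% and 16% of all genes, and below them for 33, 33 and 47, against 15%, 18.4% and 14.5%. The median member differed by −0.02, 0.03 and −0.03. AT3G49160 stood at 3.46 and 3.55 RPKM in Fe deficient IMA1 OE roots and at 1.44 and 1.08 RPKM in EYFP OE (1.2, SE 0.15, adjusted p = 0.00723). The call was lost without the second EYFP OE library (0.121) or either IMA1 OE library (0.0784 and 0.103). GSTF2 rose in IMA3 OE by 0.64 (SE 0.10, adjusted p = 0.0391). It lost this call without any 1 of the 4 libraries (0.0582 to 0.255). The 3 ferritins lay above EYFP OE in both Fe deficient IMA1 OE root libraries with no call: FER1 by 1.45 (SE 0.25, adjusted p = 0.0734), FER4 by 1.0 (SE 0.17, adjusted p = 0.0659) and FER3 by 0.88 (SE 0.17, adjusted p = 0.135).

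Some members differed between media in EYFP OE roots, where both media could be tested. On Fe deficient against control medium 18 of the 223 members were higher, against 2.13% of all genes, and 4 were lower, against 0.442%. The 4 that fell were the ferritins and AT3G49160. FER1 stood at 38.7 and 23.7 RPKM on Fe deficient and 74.9 and 127.8 RPKM on control medium (−1.67, SE 0.25, adjusted p = 0.00316, limma). FER4 stood at 9.10 and 5.98 RPKM on Fe deficient and 16.1 and 17.8 RPKM on control medium (−1.13, SE 0.17, adjusted p = 0.00322). No gene of the 4 had overlapping media. FER3 stood at 39.0 and 28.9 RPKM on Fe deficient and 49.9 and 63.7 RPKM on control medium (−0.73, SE 0.17, adjusted p = 0.046). AT3G49160 stood at 1.44 and 1.08 RPKM on Fe deficient and 3.76 RPKM in each library on control medium (−1.27, SE 0.15, adjusted p = 0.000575). The calls of FER1, FER4 and AT3G49160 held with each library left out, and that of FER3 was lost without the first control library (0.0557), the second (0.328) or the second Fe deficient library (0.316). In EYFP OE rosettes both Fe deficient libraries also lay below both control libraries for these 4 genes, where no test was made.

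The genes that rose in EYFP OE roots included the copper/zinc enzymes and their chaperone. CSD1 stood at 771 and 669 RPKM on Fe deficient and 430 and 423 RPKM on control medium (0.75, SE 0.07, adjusted p = 0.000118, limma), and CCS rose by 0.54 (SE 0.07, adjusted p = 0.00136), both calls holding with each library left out. CSD2 rose by 0.40 (SE 0.08, adjusted p = 0.0183). The call did not hold without the first control library (0.175) or either Fe deficient library (0.0823 and 0.132). AT5G48657, annotated as a defence protein, stood at 20.5 and 20.6 RPKM on Fe deficient and 5.65 and 6.35 RPKM on control medium (1.73, SE 0.13, adjusted p = 1.46e-05). VSR7, a vacuolar sorting receptor, rose by 0.79 (SE 0.08, adjusted p = 0.0002), CNGC3, an ion channel, by 0.86 (SE 0.10, adjusted p = 0.00035) and the acyltransferase gene AT5G42830 by 1.56 (SE 0.18, adjusted p = 0.000374). Of these AT5G48657 and CNGC3 were also higher in opt3-2 roots on control medium (0.96, SE 0.13, adjusted p = 0.00324, and 0.58, SE 0.10, adjusted p = 0.0142), and the comparisons share the EYFP OE control libraries. Those opt3-2 calls were lost for AT5G48657 without the first EYFP OE or first opt3-2 library (0.0532 and 0.0506) and for CNGC3 without any 1 library (0.0705 to 0.149).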

How the data were processed

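RNA sequencing was done on polyA RNA in 32 libraries, with stranded mRNA libraries per the labels' protocols. The submitters' processing notes name bcl2fastq 1.8.4, Trimmomatic 0.35, Bowtie2 2.0.6, edgeR 3.12.1, limma 3.26.9 and TAIR10. The authors deposited 26 tables that each set 2 groups side by side. The deposited values are on the RPKM scale, a unit inferred from the values, as neither headers nor labels state it. Within a table the 4 libraries follow nearly the same distribution, so a gene of the same rank in several libraries can have the same value in them, which understates the spread of the most abundant genes. Read totals are not given, so the depth is unknown and no counting interval was made. The deposited tables also hold the authors' unadjusted p-value (Z-test) and log2 fold change, which served only as an alternative or were not used.

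Members and gene lists were chosen with earlier results of these data known. RPKM values were tested as log2(RPKM + 0.5) for genes with a tissue mean of at least 0.5 RPKM, with moderated variances with a trend from limma 3.58.1 in R 4.3.3, and adjusted after Benjamini-Hochberg over 19521 genes in rosettes and 20577 in roots. The spread came from the 5 rosette groups that the choice of members did not use, or from all 8 root groups. Tables were read with pandas 2.3.3, and the procedure was tested on simulated data. Promoters were taken from RefSeq TAIR10.1. One promoter sequence is not reported here. The rosette samples carry a root source name in the labels, and their titles and tissue label were followed.

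Genes named in the text are the 20 members with the highest lower ratio, the members on a pathway list, up to 5 members per direction with the smallest adjusted p in each comparison, the 3 weakest members and 3 near misses, the altered genes, and up to 4 called genes per list that are no members. Alternatives were the pseudocount, the low-value filter, equalised library medians, the spread from other groups, the replicate number as a block, the authors' p-values and leaving out each library.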

Additional observations from a re-analysis of the deposited data

Results flagged for a closer look

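For 6 genes that passed the test in one setting, both libraries of the line lay on one side of both EYFP OE libraries there and on the other side in a second setting, in the deposited table of each comparison. These differences between settings were not tested, and groups of 2 libraries are too small for an outlier test. In IMA1 OE on Fe deficient medium, AT3G14280 gave a log2 fold change of −0.19 in roots, beside 1.17 in rosettes, and the sugar transporter gene MSS1 gave −0.44 in roots, beside 1.38 in rosettes. In opt3-2 on Fe deficient medium, the ferritin gene FER1 gave −0.54 in roots, beside 4.09 in rosettes, but its levels averaged over the tables touch in roots (23.7 and 18.4 RPKM in opt3-2, against 38.7 and 23.68 RPKM in EYFP OE). In opt3-2 roots, 3 genes were higher than EYFP OE on control medium and lower on Fe deficient medium: PCR2, a cadmium resistance gene, gave −0.24 on Fe deficient and 0.85 on control medium, FRD3 gave −0.39 and 1.58, and AT5G48657 gave −0.49 and 0.96. In Fe deficient roots none of the 6 passed (adjusted p 0.549 to 1, limma).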

How the results depend on the processing

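With 2 libraries a group and unknown depth, single-gene calls depended on the settings, and leaving out a library assumes that the lone one left varies like the other groups. Of the loci that met the rule, 306 became 142 with a line mean of at least 10 RPKM and 225 to 505 with 1 library left out. Members called in Fe deficient IMA1 OE rosettes numbered 15, and 7 with no filter, 0 with the spread of the 4 compared libraries, 57 with the replicate block, 27 with the authors' p-values, and 5 to 17 with 1 library left out. In IMA3 OE 0 became 5 with the block and 12 with the authors' p-values, and stayed 0 without each library. In opt3-2 1 became 0 with no filter, with the spread of the 4 libraries or with that of all 8 rosette groups, 6 with the block and 10 with the authors' p-values, and was 0 to 1 without each library. In control roots IMA1 OE had 8 calls, 4 with no filter, 2 with the 4-library spread, 13 with the block and 4 to 7 without each library. IMA3 OE had 4, 13 with the block and 1 to 3 without each library. There opt3-2 had 20, 12 with no filter, 10 with the 4-library spread, 49 with the block, 9 with the authors' p-values and 8 to 16 without each library. In Fe deficient roots IMA1 OE and IMA3 OE had 2 calls each, 1 each with the 4-library spread, 4 each with the block, and 1 to 4 and 1 to 1 without each library, and opt3-2 had 1, 3 with the block, 4 with the authors' p-values and 1 to 1 without each library. The EYFP OE root response had 22, 14 with the 4-library spread, 4 with the authors' p-values and 12 to 17 without each library. The cause was not tested. No alternative reversed a direction. Replicate numbers are only shared: deviations of same-numbered libraries correlated at −0.01 to 0.566 in rosettes and 0.019 to 0.483 in roots, and 8 of 8 groups in each tissue were closer on average to their own number.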
